A study of Mus musculus and Homo sapiens with 22 samples.

Results

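The Dlg, Dlgap and Shank genes encode scaffold proteins of the postsynaptic density, the protein-rich layer under the receiving side of an excitatory synapse. Their RNA was measured here in N2A cells, a mouse neuroblastoma line, after depletion of 3 proteins that act on splice site choice. The genes were taken as a fixed list of 10 symbols (Dlg1, Dlg2, Dlg3, Dlg4, Dlg5, Dlgap1, Dlgap3, Dlgap4, Shank1 and Shank3), and all 10 were found among the 22667 mouse genes of each file. The list was drawn from these gene families, without Dlgap2, Dlgap5 and Shank2, and sets no threshold on a measured value. It was chosen with earlier results of these data known. Dlg4 was on it because Ptbp proteins are known to repress an exon of Dlg4. Gene-level reads count all exons together, so exon inclusion was not measured in these values.

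Dlg proteins are membrane-associated guanylate kinase homologues, which hold receptors, channels and adhesion proteins at the membrane through PDZ domains. Dlgap proteins bind the guanylate kinase-like domain of the Dlg proteins, and Shank proteins bind the Dlgap proteins and connect them to Homer and the actin cytoskeleton. In neural progenitors and non-neuronal cells, Ptbp1 and Ptbp2 cause skipping of an exon of Dlg4, and the shortened transcript is degraded, so that PSD-95, the protein of Dlg4, accumulates only once Ptbp levels have fallen.

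The series held 22 samples, and its 6 N2A RNA-seq files were used. A pair of files came from stable populations carrying lentiviral hairpins under selection with 2 ug/mL puromycin: shGFP, a control hairpin against GFP, and shnSR100, a hairpin against the 3′UTR of nSR100 (gene Srrm4), a neuronal splicing factor. Each of these files combined 2 sequencing runs. The other 4 libraries came from cells that received ON-TARGETplus siRNA pools with RNAiMax and were harvested after 48 hours: siCtrl, a non-targeting pool, in libraries a and b; siU2af65, against the factor that recognises the polypyrimidine tract upstream of exons (gene U2af2), in 1 library with the letter a; and siPtbp1, against the polypyrimidine tract binding protein Ptbp1, in 1 library with the letter b. The labels name no hairpin for the siRNA cells. Nothing in the labels says that the siCtrl libraries came from separate cultures, so the p-values below rest on how far these libraries vary, and that variation may be purely technical.

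Reads in genes ranged from 60220620 to 77138004 per file. Each target was low where the labels say it should be: Ptbp1 was at 5.53% of siCtrl in siPtbp1 (edgeR adjusted p = 0.00242), U2af2 at 15.7% in siU2af65 (edgeR adjusted p = 0.00468), and Srrm4 at 21.5% of shGFP in shnSR100 (95% counting interval 20.2% to 22.8%). Of 15 neuroblast markers, 14 had a mean of at least 1 RPKM (a read count divided by gene length and library size). None of 7 astrocyte and none of 7 microglial markers did, and Gfap, Aqp4, Ptprc and Csf1r were among those at or near 0. In these bulk samples, fewer cells of a type and less RNA per cell cannot be told apart.

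The scaffold genes differed widely in level, and Dlg4 was the most abundant of them in each of the 6 files. Mean levels over the 6 files were 67.9 RPKM for Dlg4, 25.3 for Dlg1, 16.2 for Dlgap4, 9.36 for Dlgap3, 8.47 for Dlg5, 6.54 for Dlg2 and 2.73 for Dlg3. Shank1 had a mean of 1.05 RPKM, Shank3 of 0.203 and Dlgap1 of 0.065. The ranges over files did not overlap between Dlg4 and Dlg1, between Dlg1 and Dlgap4, between Dlgap4 and Dlgap3, or between Shank1 and Shank3. Each other pair of neighbours in this order overlapped: Dlgap3 with Dlg5, Dlg5 with Dlg2, Dlg2 with Dlg3, Dlg3 with Shank1, and Shank3 with Dlgap1. Dlg5 varied least, 1.42-fold between its lowest and highest file, and Shank3 most, 6.33-fold.

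**Figure D1:**
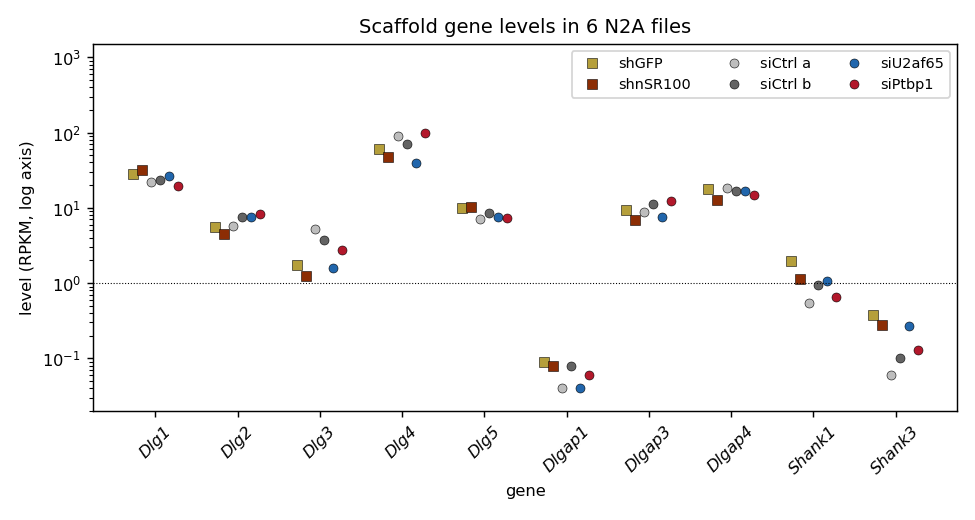
Level of each of the 10 scaffold genes (x axis) in RPKM on a log axis (y axis), with 1 point per N2A file; squares are hairpin files, circles are siRNA libraries, and the dotted line marks 1 RPKM. Dlg4 lies highest, between 39.37 and 98.91 RPKM, and Dlgap1 does not exceed 0.09 RPKM.

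For the siRNA comparisons, genes averaging 1 RPKM or more over the 4 libraries were tested, 11237 in all. Of the 10 scaffold genes, 7 passed that filter and Dlgap1, Shank1 and Shank3 did not. Log2 differences come from edgeR's quasi-likelihood fit on read counts scaled by TMM, with 1 residual degree of freedom from the siCtrl pair, and adjusted p-values are Benjamini-Hochberg over all tested genes with a threshold of 0.05. Both knockdowns are compared with the same siCtrl libraries, so their differences from control are not independent.

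Depletion of U2af65 was accompanied by lower Dlg4 and Dlg3 RNA, while Dlg1, Dlg2 and Dlg5, of the same family, and Dlgap3 and Dlgap4 did not pass the test. Dlg4 stood at 45.3% and Dlg3 at 32.5% of siCtrl. None of the 7 tested genes was called higher and 2 were called lower, where 1.82% of all tested genes were called higher and 3.42% lower (205 and 384 genes, and 581 and 581 with library totals in place of TMM). The median log2 difference was -0.16 over the 7 scaffold genes, 2 above 0 and 5 below, and 0.00 over all 11237 genes. The summed level of 7 microglial markers was highest in siU2af65, at 3.94 RPKM there and 0.70 to 1.33 in the other 5 files. Most of that sum was Tyrobp (3.41 RPKM), with Ptprc, Csf1r, Itgam and Cx3cr1 at or below 0.02 RPKM in siU2af65. Cd68, at 0.40 RPKM in siU2af65, was above siCtrl a and b (0.33 and 0.35) and below shGFP and shnSR100 (0.68 and 0.81). Aif1, at 0.07 RPKM in siU2af65, lay between siCtrl a and b (0.02 and 0.10) and below shGFP and shnSR100 (0.25 and 0.17). The part of these markers in the scaffold gene levels was not tested.

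Dlg4 encodes PSD-95, the main scaffold that anchors AMPA-receptor complexes and NMDA receptors at the postsynaptic membrane. Its level was 89.88 RPKM in siCtrl a, 71.10 in siCtrl b, 39.37 in siU2af65 and 98.91 in siPtbp1, resting on 18135, 17304, 8498 and 21830 reads. The siU2af65 library was the lowest of the 4 and siPtbp1 the highest, and neither lay between the siCtrl libraries (80.5 ± 13.3 RPKM, SD, n = 2). In siU2af65 Dlg4 fell, with a log2 difference of -1.14 (SE 0.27, 95% interval -1.75 to -0.53, edgeR adjusted p = 0.0449). Against siCtrl b alone the log2 difference was -0.89 and against siCtrl a alone -1.35, with no test. The shGFP file, a control of another kind, held Dlg4 at 60.28 RPKM, below both siCtrl libraries and above siU2af65. When shGFP was added to the controls, the difference was -0.99 with an edgeR adjusted p of 0.473, and with a filter at a mean of 5 RPKM it was -1.12 with 0.071. Over the 8 alternatives with a test, the adjusted p for Dlg4 ran from 7.13e-05 to 0.473, and 6 kept the call.

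In a RefSeq annotation of GRCm38.p6 the genes next to Dlg4 are Acadvl, a mitochondrial fatty acid oxidation enzyme that lies before it, and Asgr1, a liver lectin, after it. Acadvl stood at 23.02 RPKM in siCtrl a, 22.41 in siCtrl b and 22.39 in siU2af65. Its log2 difference in siU2af65 was -0.12 (SE 0.24, edgeR adjusted p = 0.807), which did not pass the test; the difference between Acadvl and Dlg4 was not tested. Asgr1 was at or below 0.31 RPKM in every file. Whether the authors' counting used strand is not given in the sources used here, and reads from overlapping transcripts cannot be told apart without it.

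Dlg3 encodes SAP102, a scaffold that carries NMDA receptors early in synapse development. Its level was 5.29 RPKM in siCtrl a, 3.75 in siCtrl b, 1.59 in siU2af65 and 2.75 in siPtbp1, from 1659, 1419, 533 and 943 reads. Both knockdown libraries lay below both siCtrl libraries (4.52 ± 1.09 RPKM, SD, n = 2), with siU2af65 the lower. In siU2af65 Dlg3 fell, with a log2 difference of -1.62 (SE 0.39, 95% interval -2.50 to -0.74, edgeR adjusted p = 0.0467). Without siCtrl a the difference was -1.28, and without siCtrl b it was -1.90. The hairpin files held Dlg3 at 1.75 RPKM in shGFP and 1.24 in shnSR100, so the control hairpin cells were close to siU2af65 and below both siCtrl libraries. The call for Dlg3 was kept in 4 of 7 alternatives, with adjusted p from 7.13e-05 to 0.611. It was lost with limma on log2(RPKM + 1) (difference -1.08, adjusted p 0.0646) and on log2(RPKM + 0.1) (-1.43, adjusted p 0.0693). It was also lost in edgeR once shGFP joined the controls (-1.28, adjusted p 0.611). The neighbours of Dlg3 in GRCm38.p6, Gdpd2 and Tex11, were at or below 0.04 RPKM in every file.

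Dlg1 encodes SAP97, a scaffold of synapses and of the basolateral membrane of epithelia. Its level was 21.98 RPKM in siCtrl a, 23.31 in siCtrl b, 26.47 in siU2af65 and 19.53 in siPtbp1. The siU2af65 library was the highest of the 4 for Dlg1 and the lowest for Dlg4, but the log2 difference of Dlg1 was 0.12 (SE 0.20, 95% interval -0.33 to 0.58), and the edgeR adjusted p of 0.767 missed the threshold. Dlg2, which encodes PSD-93, the closest relative of PSD-95, was at 5.81, 7.52, 7.58 and 8.28 RPKM in siCtrl a, siCtrl b, siU2af65 and siPtbp1. Its siU2af65 level was near that of siCtrl b, with a log2 difference of 0.09 (SE 0.24, 95% interval -0.46 to 0.64). Dlg5, a more distant relative with roles in epithelial polarity, was at 7.19, 8.66, 7.58 and 7.31 RPKM in the same order. In RPKM both knockdown libraries lay within the siCtrl pair for Dlg5, but after TMM scaling both lay below both siCtrl libraries. On the TMM scale the log2 difference of Dlg5 in siU2af65 was -0.16 (SE 0.22, 95% interval -0.65 to 0.33). Against siCtrl a alone it was -0.09 and against siCtrl b alone -0.23, with no test.

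Dlgap3 and Dlgap4 encode SAPAP-type linkers between Dlg and Shank proteins. Dlgap3 was at 8.82 RPKM in siCtrl a, 11.24 in siCtrl b, 7.53 in siU2af65 and 12.19 in siPtbp1. It had the same order of knockdown libraries as Dlg4, with siU2af65 below and siPtbp1 above both siCtrl libraries. Its log2 difference in siU2af65 was -0.51 (SE 0.25, 95% interval -1.07 to 0.05, edgeR adjusted p = 0.251), which missed the threshold. Dlgap4 was at 18.40, 16.49, 16.91 and 15.02 RPKM in siCtrl a, siCtrl b, siU2af65 and siPtbp1. In RPKM the siU2af65 library lay within the siCtrl pair for Dlgap4, but after TMM scaling it lay slightly below both. On the TMM scale its log2 difference was -0.15 (SE 0.22, 95% interval -0.65 to 0.35). Against siCtrl a alone it was -0.28 and against siCtrl b alone -0.01, with no test.

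Dlgap1, Shank1 and Shank3 averaged under 1 RPKM in the siRNA libraries, and Dlgap1 and Shank3 rested on few reads. Dlgap1 had 13, 29, 13 and 18 reads in siCtrl a, siCtrl b, siU2af65 and siPtbp1, a level no higher than 0.08 RPKM. Shank1 was at 0.55, 0.95, 1.05 and 0.65 RPKM in that order, from 268, 553, 544 and 346 reads. Shank3 was at 0.06, 0.10, 0.27 and 0.13 RPKM, from 29, 56, 129 and 65 reads. Shank3 was higher in siU2af65 than in either siCtrl library. In a fit with no filter its log2 difference was 1.52 (SE 0.61, 95% interval 0.32 to 2.72), which the edgeR adjusted p of 0.10 did not call. In the same fit Shank1 differed by 0.34 (SE 0.41) and Dlgap1 by -0.75 (SE 0.88), both not called.

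Depletion of Ptbp1, the repressor of the Dlg4 exon, left no scaffold gene past the threshold at gene level. In siPtbp1, 0 of the 7 tested genes were called by edgeR, 0 had an unadjusted p under 0.05, and limma and DESeq2 also called 0 of them. Over all tested genes, 0.0% were called higher and 0.0267% lower (0 and 3 genes, and 14 and 72 with library totals), so the comparison called almost nothing at all. At an unadjusted p under 0.05 there were 481 genes, while limma on log2(RPKM + 1) called 99 and DESeq2 20. The median log2 difference was -0.16 over the 7 genes, 3 above 0 and 4 below, and 0.01 over all tested genes.

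Dlg4 had a log2 difference of 0.24 in siPtbp1 (SE 0.26, 95% interval -0.34 to 0.81, edgeR adjusted p = 0.999). The interval held 0, and siCtrl b itself differed from siCtrl a by -0.46. Which siCtrl library was used moved this value: it was 0.48 against siCtrl b, which carries the same letter as siPtbp1, and 0.03 against siCtrl a. Ptbp2, the paralogue that acts on the same Dlg4 exon, was at 51.01 and 40.82 RPKM in siCtrl a and b and at 79.06 in siPtbp1, above both. Its log2 difference there was 0.72 (SE 0.24, edgeR adjusted p = 0.961), and it was not called. The part of Ptbp2 in the Dlg4 level was not tested.

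Dlg3 differed most of the 7 in siPtbp1, with a log2 difference of -0.78 (SE 0.38, 95% interval -1.62 to 0.06). It was -0.44 against siCtrl b and -1.06 against siCtrl a, and its siCtrl libraries differed by -0.62 between themselves. Dlg1 (-0.26, SE 0.21), Dlgap4 (-0.27, SE 0.22) and Dlg5 (-0.16, SE 0.22) had negative log2 differences. Those of Dlg2 (0.27, SE 0.24) and Dlgap3 (0.24, SE 0.24) were positive. The edgeR adjusted p was 0.999 for each of the 7 genes. In the fit with no filter, Shank3 differed by 0.60 (SE 0.64), Shank1 by -0.25 (SE 0.42) and Dlgap1 by -0.23 (SE 0.85).

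**Figure D2:**
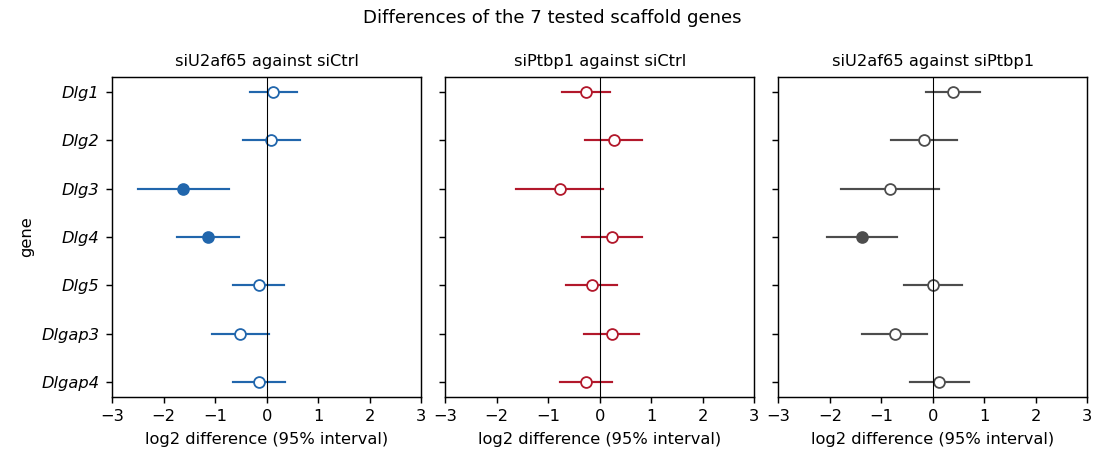
Log2 difference with its 95% interval (x axis) for the 7 tested scaffold genes (y axis) in 3 comparisons of the siRNA libraries; filled points passed an adjusted p of 0.05. Dlg3 and Dlg4 are filled against siCtrl in siU2af65, no gene is filled in siPtbp1, and only Dlg4 is filled in the direct comparison of the knockdowns.

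The knockdowns were also compared with each other in the same fit, which tests whether a gene differed between them and does not use the siCtrl level. Dlg4 was lower in siU2af65 than in siPtbp1, at 38.5% (log2 difference -1.38, SE 0.31, 95% interval -2.06 to -0.69, edgeR adjusted p = 0.0421). It was the only called scaffold gene of the 7, where 1.09% of all tested genes were called higher in siU2af65 and 2.54% lower (122 and 285 genes, and 435 and 550 with library totals). The call was kept in 5 of 7 alternatives, with adjusted p from 4.54e-06 to 0.581. It was lost at a mean of 5 RPKM (log2 difference -1.34, adjusted p 0.0773) and with shGFP added to the controls (-1.38, adjusted p 0.581), with a difference close to the first. Each knockdown had 1 library, so the test takes its spread from the siCtrl pair and from the other genes.

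Dlg3, called in siU2af65 against siCtrl, did not pass in this direct comparison (log2 difference -0.84, SE 0.42, 95% interval -1.79 to 0.11, edgeR adjusted p = 0.301). A different response of Dlg3 to the knockdowns was therefore not shown. Dlgap3 was lower in siU2af65 by a log2 difference of -0.74 (SE 0.28, 95% interval -1.38 to -0.11) at an unadjusted p of 0.0254, which became 0.172 after edgeR's adjustment. Dlg1 was at 0.39 (SE 0.24), Dlg2 at -0.18 (SE 0.28), Dlg5 at 0.00 (SE 0.25) and Dlgap4 at 0.12 (SE 0.26). The median was -0.18 over the 7 genes and 0.00 over all.

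The share of Dlg4 among the 4 closely related genes Dlg1 to Dlg4, whose proteins can occupy the same partners, differed between files. Summed, they stood at 123 RPKM in siCtrl a, 106 in siCtrl b, 75.0 in siU2af65 and 129 in siPtbp1. Dlg4 made up 73.1%, 67.3%, 52.5% and 76.4% of those sums, and Dlg1 17.9%, 22.1%, 35.3% and 15.1%. The level of Dlg4 relative to Dlg1 was 4.09 and 3.05 in the siCtrl libraries, 1.49 in siU2af65 and 5.06 in siPtbp1. In the hairpin files the sums were 96.0 RPKM in shGFP and 85.5 in shnSR100, with Dlg4 at 62.8% and 56.0% and ratios to Dlg1 of 2.12 and 1.5. By share, the shGFP cells thus lay between siU2af65 and the siCtrl libraries. The shares follow from the levels above and were not tested separately.

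**Figure D3:**
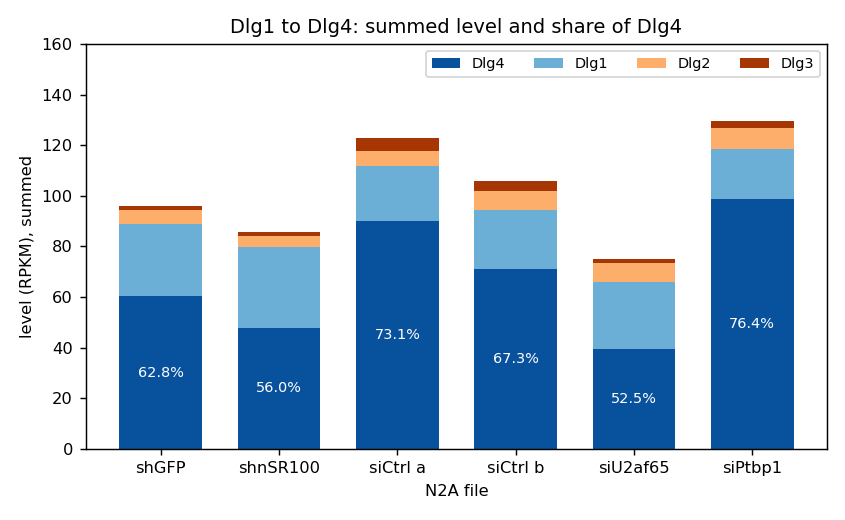
Summed level of Dlg1 to Dlg4 in RPKM (y axis) in each of the 6 N2A files (x axis), stacked by gene, with the share of Dlg4 printed in its segment. Dlg4 takes 52.5% of the sum in siU2af65 and 76.4% in siPtbp1, and the siCtrl libraries lie between at 67.3% and 73.1%.

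The nSR100 hairpin was compared with the GFP hairpin by description only, since each had 1 file. None of the 10 scaffold genes reached a log2(RPKM + 1) difference of 1 in size, where 0.506% of all 21553 genes with an RPKM did, and 0.918% of the 11877 genes with at least 1 RPKM in either file. The median over the 10 was -0.28, with 2 above 0 and 8 below, and 0.03 over the 11877 genes. This scale understates the difference of low genes. Dlgap1 and Shank3, at 0.09 and 0.38 RPKM in shGFP, could not fall by 1 on it. Both count in the median over the 10, although they were under the 1 RPKM filter of the 11877 genes. Levels are given below as a percent of shGFP, after scaling to library size, with an exact binomial 95% interval, which covers counting error only and not the spread between cultures.

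Among the Dlg genes, Dlg4 went from 60.28 RPKM in shGFP to 47.87 in shnSR100, or 79.4% (77.4% to 81.5%), from 11453 and 11115 reads. Dlg2 stood at 80.1% (74.9% to 85.7%) and Dlg3 at 70.9% (62.3% to 80.6%). Dlg1 was above shGFP, at 112% (109% to 116%), with 28.41 and 31.95 RPKM. The interval of Dlg5, 104% (99.7% to 108%), held 100%. Dlg4, Dlg2 and Dlg3 thus lay on the other side of shGFP from Dlg1.

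Among the linkers and Shank genes, Dlgap3 went from 9.38 to 6.98 RPKM, 74.3% (69.9% to 79.1%), and Dlgap4 from 17.67 to 12.65, 71.6% (68.8% to 74.5%). Shank1, a scaffold at the deep face of the postsynaptic density, had the lowest percent of the 10: it went from 1.95 to 1.15 RPKM, 59.1% (53.3% to 65.5%), on 886 and 640 reads. Shank3, whose loss is known to impair synapses in mice, was at 72.3% (57.5% to 91.0%) on 164 and 145 reads. Dlgap1, with 25 and 27 reads, was at 88.4%, and its wide interval of 49.4% to 159% held 100%. The summed level of 15 neuroblast markers was also lower in shnSR100, at 1180 RPKM against 1580 in shGFP: 9 of the 15 were lower and 6 higher, with Stmn2 going from 286.68 to 146.04 RPKM and Tubb3 from 323.60 to 192.71. Their part in the lower scaffold gene levels was not tested. Summed levels of fibroblast and endothelial markers were higher in both hairpin files than in the siRNA libraries. For 8 fibroblast markers the sums were 11.2 and 16.4 RPKM against 1.08 to 2.95. For 6 endothelial markers they were 20.7 and 24.0 against 5.44 to 10.4. Most of the endothelial sum in the hairpin files was Vwf (14.06 and 16.46 RPKM, against 0.48 to 1.23 in the siRNA libraries). Pecam1 was highest in siU2af65 (9.15 RPKM, with 5.49 in shGFP and 6.62 in shnSR100), and Kdr and Cldn5 were at 0. Most of the fibroblast sum in the hairpin files was Pdgfra, Pdgfrb and Dcn, with Col3a1 and Postn at 0 in every file. Shank1 and Shank3 were highest in those hairpin files too. So were Dlg1 (28.41 and 31.95 RPKM, against at most 26.47 in the siRNA libraries), Dlg5 (9.87 and 10.22, against at most 8.66) and Shank2 (3.96 and 2.71, against at most 1.80). Dlg2, Dlg3, Dlg4, Dlgap3 and Dlgap4 were highest in a siRNA library, and Dlgap1 was near 0 in every file. The part of other cell features in these levels was not tested.

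**Figure D4:**
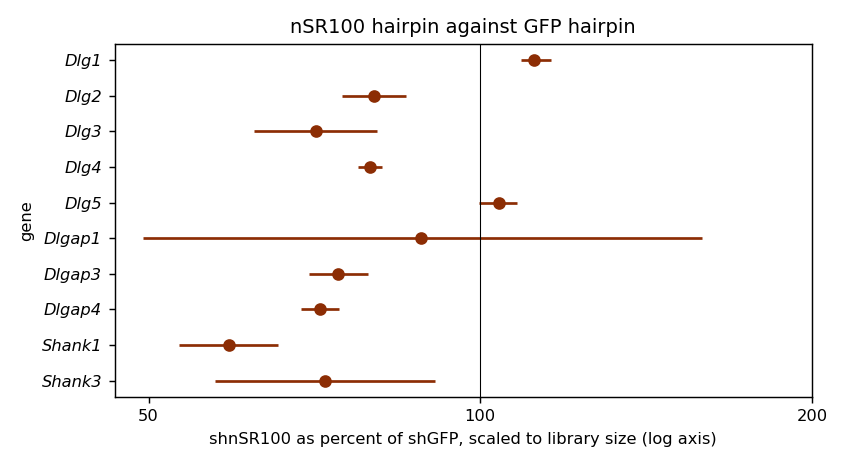
Reads of each scaffold gene (y axis) in shnSR100 as a percent of shGFP, scaled to library size, on a log axis (x axis), with exact binomial 95% intervals that cover counting error only. Dlg1 lies at 112%, Dlg5 at 104%, and the other 8 genes between 59.1% and 88.4%.

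The other members of the families were Dlgap2, Dlgap5 and Shank2. Dlgap5, which despite its name is a mitotic spindle protein, was at 19.45, 18.69, 9.37 and 23.78 RPKM in siCtrl a, siCtrl b, siU2af65 and siPtbp1. In siU2af65 it fell (log2 difference -1.13, SE 0.24, edgeR adjusted p = 0.0307), and it was lower there than in siPtbp1 (-1.39, SE 0.26, edgeR adjusted p = 0.0255). It was above shGFP in shnSR100, at 158% (148% to 169%). Shank2 was at 0.65 and 1.80 RPKM in the siCtrl libraries, a log2 difference of 1.36 between them, and its value of 0.24 in siU2af65 was not called (SE 0.55). Dlgap2 was at or below 0.02 RPKM in every file.

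The partners that bind these scaffolds were read from 5 further lists. Of 22 glutamate receptor subunits and auxiliary proteins, which the Dlg proteins anchor, only 7 passed the filter in the siRNA libraries, and none was called in either knockdown (medians -0.15 in siU2af65 and 0.05 in siPtbp1). In the hairpin files all 9 genes of that list with at least 1 RPKM had negative differences, with a median of -0.32, beside 5231 negative of 11877 genes and a median of 0.03. Cacng3, an AMPA-receptor auxiliary protein that binds PSD-95, was the 1 gene of the list past 1, where 0.918% of those 11877 genes were: it went from 33.62 to 11.57 RPKM, a log2(RPKM + 1) difference of -1.46. In the siRNA libraries Cacng3 was at 53.88, 42.81, 42.55 and 29.00 RPKM.

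Of 30 postsynaptic density partners and signalling proteins, 27 were tested in the siRNA libraries, and in siU2af65 none was called higher and 2 were called lower (median -0.13), against 1.82% and 3.42% of all tested genes. Arc, an activity-regulated protein that acts on AMPA-receptor uptake, was at 12.06, 9.60, 4.75 and 14.47 RPKM in siCtrl a, siCtrl b, siU2af65 and siPtbp1. It fell in siU2af65 (log2 difference -1.30, SE 0.30, edgeR adjusted p = 0.0422). Baiap2, an actin regulator that binds PSD-95 and Shank proteins, was at 16.30, 13.05, 6.93 and 19.57 RPKM and fell by 1.19 (SE 0.29, edgeR adjusted p = 0.0483). For both genes siU2af65 was the lowest library and siPtbp1 the highest. Between the knockdowns 3 genes of the list were lower in siU2af65, namely Arc (-1.66), Baiap2 (-1.55) and Camk2d (-1.05), and Nos1, the neuronal nitric oxide synthase that PSD-95 tethers, was higher, where 2.54% of all tested genes were lower and 1.09% higher. Nos1 stood at 4.19, 2.22, 5.24 and 0.88 RPKM, so siU2af65 was above siPtbp1 (log2 difference 2.52, SE 0.47, edgeR adjusted p = 0.0247).

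Of 25 synaptic adhesion genes, 8 were tested, and 1 fell in siU2af65 (median -0.14), where 3.42% of all tested genes did: Nlgn2, the neuroligin of inhibitory synapses, at 10.95, 10.82, 5.77 and 9.11 RPKM (log2 difference -1.02, SE 0.24, edgeR adjusted p = 0.0422). Of 30 polarity partners of the Dlg proteins, 25 were tested, with 1 called higher and 2 lower in siU2af65 (median -0.11), against 1.82% and 3.42% of all tested genes; with counts this small nothing is read from the list. Pard6a, a core protein of the Par polarity complex, rose from 18.15 and 21.08 RPKM in siCtrl to 56.82 in siU2af65 (log2 difference 1.44, SE 0.23, edgeR adjusted p = 0.0151). Mpp3 and Mpp5, smaller guanylate kinase homologues, fell by 1.14 (SE 0.28, edgeR adjusted p = 0.0477) and 0.92 (SE 0.23, edgeR adjusted p = 0.0481). Mpp5 was also lower in siU2af65 than in siPtbp1 (-1.36), and Pard6a higher (1.27). None of the 10 palmitoylation genes, which include enzymes that attach PSD-95 to the membrane, was called in any siRNA comparison, and their median in siU2af65 was -0.01. In siPtbp1 none of these 5 lists had a called gene, with medians from -0.10 to 0.14.

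The gene nearest to Dlg4 in its pattern over the 6 files was Baiap2, with a root mean square distance of 0.063 between centred log2 CPM values. Usp28, a deubiquitinase, followed at 0.082, with 15.04, 10.72, 6.77 and 14.80 RPKM in siCtrl a, siCtrl b, siU2af65 and siPtbp1 and 9.24 and 8.02 in shGFP and shnSR100. Klf5, a zinc finger transcription factor, came at 0.111, with 21.87, 17.50, 10.43 and 21.35 RPKM and 14.19 and 10.16 in the hairpin files. These 3 are the closest among all tested genes, a ranking over only 6 files that share controls, given as a description.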

How the data were processed

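RNA-seq of 6 N2A files was used. The 293T files and the crosslinking libraries were not analysed here. The deposited files give, per Ensembl gene, the raw read count and an RPKM value that the authors computed, without a header. A blank count was read as 0, and 1114 genes have no RPKM. Per the submitters' processing notes, Bowtie, bedtools 2.17.0 and the build mm9 were used, with no role given. The counting rule, strand use and annotation are not given in the sources used here. Symbols matched 20759 of 22667 identifiers.

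Counts of the 4 siRNA libraries were fitted with edgeR 4.0.16 (R 4.3.3): TMM scaling, a mean of at least 1 RPKM, quasi-likelihood test, 1 residual and 8.65 prior degrees of freedom, and common dispersion 0.0375. The SE is the log2 difference divided by the square root of F. CPM are TMM-scaled, with a prior count of 0.5 on the log scale. Alternatives used limma 3.58.1 on log2(RPKM + 1) and log2(RPKM + 0.1), DESeq2 1.42.0, library totals, other filters, other sets of samples, and each siCtrl library left out. The edgeR step was tested on simulated counts for the comparison of siU2af65 with siCtrl, drawn with a dispersion of 0.0375 for every gene. Hairpin files, 1 per group, were not tested, and their exact binomial intervals at 95% cover counting error only.

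The scaffold genes and lists were chosen with earlier results of these data known. Named are all 10 scaffold genes, the targeted genes with Ptbp2, and the 3 genes nearest to Dlg4. From the lists, up to 4 called genes per list and comparison are named by size of the log2 difference. Hairpin differences of 1 or more in size are named too. The genes beside Dlg3 and Dlg4 were named as neighbours, from the order of genes in GRCm38.p6.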

Additional observations from a re-analysis of the deposited data

Results flagged for a closer look

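Dlg4 differed between the U2af65 and Ptbp1 knockdowns when their effects were tested against each other: the log2 difference was -1.38 (SE 0.31, edgeR adjusted p = 0.0421), with 39.37 RPKM in siU2af65 and 98.91 in siPtbp1. Each knockdown had 1 library, and the letters differ between them, a for siU2af65 and b for siPtbp1. When each was set against the siCtrl library of its own letter, the difference of those differences was -1.84. No cause was tested.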

How the results depend on the processing

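No paired analysis was possible because each knockdown had 1 library, which shares its letter with only 1 siCtrl library, and the numbered hairpin runs were combined into 1 file per group. Of the 7 tested scaffold genes, 2 were called in siU2af65 against siCtrl. That count was 0 with a mean of at least 5 RPKM, where Dlg3 was not tested, 0 with shGFP added to the controls, and 1 with limma on log2(RPKM + 0.1) or log2(RPKM + 1). It was 2 with DESeq2, library totals, no filter, or the compared groups only. Between the knockdowns the count of 1 became 0 at a mean of 5 RPKM and 0 with shGFP added. The count of 0 in siPtbp1 was 0 in all 8 alternatives, and that in shnSR100 was 0 in each alternative run. The difference of Dlg5 between the knockdowns, 0.00, was -0.04 with no filter. The cause of these shifts was not tested. Leaving out each siCtrl library gave -1.35 to -0.89 for Dlg4 and -1.90 to -1.28 for Dlg3 in siU2af65. With library totals in place of TMM, calls over all genes went from 205 higher and 384 lower to 581 and 581 in siU2af65, from 0 and 3 to 14 and 72 in siPtbp1, and from 122 and 285 to 435 and 550 between them, with medians of all genes at 0.09, 0.06 and 0.05. Depth limits Dlgap1 and Shank3, with at most 29 and 164 reads per file.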
